A study of Homo sapiens with 2 samples.

Results

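The 10 genes described here are the integrin subunits that carry cells onto the adhesion ligand VCAM1, VCAM1 itself, and cytoplasmic proteins that tie integrins to actin. They were taken by symbol (ITGA4, ITGB1, ITGB7, ITGA5, ITGA9, FERMT3, TLN1, EVL, VCL and VCAM1) from 32738 genes of the deposited matrix. No level was used to pick them, but they were chosen with earlier results of these data known. EVL and FERMT3 are among the genes that the paper reports as altered by VCAM1. Cells were nonadherent cells grown from CD34+ cells of the human induced pluripotent stem cell line iPS11, which is 1 line. The CD34+ cells were cultured for 5 days in a medium for the endothelial-to-hematopoietic transition on wells coated with DLL4, VCAM1, both proteins or neither. Cells of 3 wells were pooled for each of these 4 conditions, marked with 1 hashtag antibody per condition (0252, 0253, 0254 or 0255) and run as 1 droplet library. The sources used here do not say which hashtag marks which coating, so hashtags stand under their numbers and no coating is named for any of them.

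Integrins are pairs of an α and a β chain on the cell surface. The α4 chain, made by ITGA4, joins the β1 chain of ITGB1 or the β7 chain of ITGB7, and both pairs bind VCAM1, while α9β1 also binds it and α5β1 binds fibronectin. Talin (TLN1) and kindlin-3 (FERMT3) bind the β tail and switch the pair to its binding state, vinculin (VCL) strengthens the link of talin to actin, and EVL is an Ena/VASP protein that promotes actin filament growth at adhesions. Blood progenitors use α4β1 to lodge on VCAM1 of endothelial and stromal cells, and kindlin-3 is the kindlin of blood cells.

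Of 10836 barcodes, 8488 were called for 1 hashtag and 7550 of these held at most 36000 UMIs, 6000 genes and 18% of UMIs on mitochondrial genes. These cells carried 142110950 UMIs, with 1571 to 2136 cells and a median of 17621 to 18770 UMIs per cell in each hashtag. Cells were sorted by marker genes: a cell entered a lineage gate when the marker UMIs reached 10 per 10000 UMIs of that cell, and the CD34/GATA2 gate when it held a UMI of each of these genes and passed no lineage limit. The gates took 2544 cells for CD34/GATA2, 498 for C1Q, 62 for ELANE, 6 for PF4/PPBP, 367 for globin and 76 for collagen, while 3909 cells passed no gate and 88 passed several. Genes not used to gate matched most of the names. MPO stood at 17336 UMIs per 1000000 UMIs (CPM, the scale of every level given here) in the ELANE gate, CD14 at 144.8 CPM in the C1Q gate and TAGLN at 3645 CPM in the collagen gate, while the endothelial genes CDH5 and KDR summed to 2.42 CPM over all cells kept.

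Some labels need care. In the 6 cells of the PF4/PPBP gate PF4 was listed at 0 and the gate rested on PPBP, since 74 of the cells past this limit also passed the globin limit and were set aside. All 80 cells past the PF4/PPBP limit, with or without globin, are therefore given beside the 6, a choice made after the values were seen. The globin gate held GATA1 at 293.1 CPM, beside 317.9 CPM in the 80 cells past the PF4/PPBP limit. The erythroid genes KLF1 and ALAS2 stood at 90.6 and 36.2 CPM in globin cells. The megakaryocyte genes ITGA2B and GP9 stood at 323.8 and 199.7 CPM there, and HBB at 19.3 CPM. The globin gate is therefore called by its markers only. Hashtags shared the gates unevenly: the ELANE gate held 33, 24, 3 and 2 cells in hashtags 0252 to 0255, and the collagen gate 9, 8, 14 and 45. Since there is 1 library, no difference has a replicate check and no p-value is given. Intervals are 95% intervals, exact Poisson for levels and Clopper-Pearson for shares, and cover counting error only. In ratios of the highest to the lowest hashtag, these hashtags were picked by their values, which the intervals do not allow for. Where a count is 0, the limit given is the level or share that 3 counts would make, unless an exact upper bound is named.

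On hg19, ITGA4 lies at chr2:182321929-182403667 on the forward strand, ITGB1 at chr10:33176201-33294720 and ITGB7 at chr12:53585107-53601066, both on the reverse strand. ITGA5 lies at chr12:54789045-54813050 on the reverse strand, ITGA9 at chr3:37493606-37864998 on the forward strand and VCAM1 at chr1:101185298-101204601 on the forward strand. Among the linkers, FERMT3 lies at chr11:63973398-63991368, EVL at chr14:100437786-100610573 and VCL at chr10:75754951-75881121 on the forward strand, and TLN1 at chr9:35696945-35732192 on the reverse strand. ITGA4, ITGB7, FERMT3, EVL and VCL each overlap another gene of the matrix, in every case on the opposite strand.

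The promoters of FERMT3, TLN1 and VCL are shown because these 3 linkers stood higher together in globin and PF4/PPBP cells than in CD34/GATA2 cells, as described below. Each run is the 250 bases before the start site in RefSeq (build GRCh38.p14), 5′ to 3′ on the strand of the gene. Capitals mark the GATA words AGATAA and TGATAA and the ETS words CAGGAA and CCGGAA, searched on both strands, so that an ETS word of the other strand reads TTCCTG or TTCCGG. No match overlapped another.
FERMT3, chr11:64206471-64206720, forward strand: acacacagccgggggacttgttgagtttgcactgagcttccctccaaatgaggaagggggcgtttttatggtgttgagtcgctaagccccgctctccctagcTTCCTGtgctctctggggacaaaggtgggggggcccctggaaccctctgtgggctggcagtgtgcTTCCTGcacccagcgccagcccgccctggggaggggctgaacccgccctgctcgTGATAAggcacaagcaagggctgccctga
TLN1, chr9:35732196-35732445, reverse strand: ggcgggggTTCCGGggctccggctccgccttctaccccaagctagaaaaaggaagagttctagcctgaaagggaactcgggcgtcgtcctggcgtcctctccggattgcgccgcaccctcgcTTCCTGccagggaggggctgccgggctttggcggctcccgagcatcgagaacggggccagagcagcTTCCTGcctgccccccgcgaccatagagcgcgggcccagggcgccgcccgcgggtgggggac
VCL, chr10:73997866-73998115, forward strand: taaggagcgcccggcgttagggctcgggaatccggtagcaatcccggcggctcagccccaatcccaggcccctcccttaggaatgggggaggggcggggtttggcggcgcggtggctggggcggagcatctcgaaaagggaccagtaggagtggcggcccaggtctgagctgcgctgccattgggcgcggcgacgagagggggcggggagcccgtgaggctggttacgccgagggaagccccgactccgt

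FERMT3 held 1 GATA word, 29 bases before its start, and 2 ETS words. TLN1 held 3 ETS words and no GATA word, and neither kind of word is in the VCL window. Of the other promoters, that of ITGB1 held 3 ETS words and that of ITGA5 1, and the second start site of EVL held 2. Over 27305 RefSeq promoters of this length, 1 per gene, 14.9% held a GATA word, 35.9% an ETS word, 9.05% 2 or more ETS words and 1.07% a GATA word with 2 or more ETS words. The last combination is the one held by the FERMT3 window shown, and several promoters were searched, so its share does not measure how unusual that window is. A match is a description of letters and not a binding site. RefSeq promoters matched 9 of the 10 genes, and the second FERMT3 start site in that table held 1 ETS word.

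Over all cells kept, ITGA4 was measured at 33.2 CPM (interval 32.2 to 34.1), with a UMI in 37.1% of cells. ITGB1 stood at 95.3 CPM (93.7 to 96.9) with a UMI in 76.3% of cells, and ITGB7 at 16.3 CPM (15.6 to 17.0) with a UMI in 17.7%. Among the other α chains, ITGA5 reached 20.05 CPM and ITGA9 only 3.21 CPM. The linkers were the most abundant members, with TLN1 at 242.9 CPM, FERMT3 at 131.7, EVL at 113.6 and VCL at 61.2 CPM. UMIs mark the 3′ ends of transcripts and are not scaled by length, and how well each gene is captured is unknown, so levels of different genes are set side by side only loosely. A single cell rarely held more than a few UMIs of a subunit, the highest counts in any cell being 10 for ITGA4, 38 for ITGB1 and 10 for ITGB7.

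VCAM1, the ligand, was barely detected in the nonadherent cells themselves. It had 3 UMIs in 2 of 7550 cells, both outside every gate, and 6 UMIs in all 10836 barcodes. With 0 UMIs in the CD34/GATA2 gate, a level of up to 0.0560 CPM and a share of up to 0.118% of cells with a VCAM1 UMI are allowed there, which sets no limit on cells that express it without giving a UMI, and in the 76 collagen cells the limit is 2.49 CPM.

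ITGA4, the α chain of both main VCAM1 receptors, was highest in the ELANE gate. It stood at 77.2 CPM (58.5 to 100) in ELANE cells, which also hold the neutrophil granule genes, against 30.1 CPM (28.6 to 31.6) in CD34/GATA2 cells. This is 2.57 times higher (1.94 to 3.34), but the gate holds 57 ITGA4 UMIs, and the 2 hashtags with more than 3 ELANE cells gave 96.7 and 53.5 CPM. Levels were lower in the C1Q gate at 16.9 CPM (13.9 to 20.3), the collagen gate at 16.6 CPM (10.1 to 25.6) and the globin gate at 15.6 CPM (12.9 to 18.7), and these 3 gates do not differ beyond their intervals. By hashtag (0252 to 0255), ITGA4 read 25.9, 32.3, 27.5 and 37.9 CPM in CD34/GATA2 cells and 16.2, 16.9, 16.1 and 19.3 CPM in C1Q cells. All hashtags of the C1Q gate were thus below all those of the CD34/GATA2 gate. In globin cells the hashtags gave 10.8, 12.9, 26.5 and 16.5 CPM, of which 0254 reached the range of the CD34/GATA2 cells. ITGA4 was lowest in the 80 cells past the PF4/PPBP limit, with 6 UMIs in all and 4.0 CPM (1.47 to 8.70). Thinned to 5000 UMIs, 0 of 77 such cells kept an ITGA4 UMI, which allows a share of up to 3.90% (exact upper bound 4.68%), against 11.9% of CD34/GATA2 cells and 26.7% of ELANE cells. Within the CD34/GATA2 gate, ITGA4 stood at 45.5 CPM in the 785 cells without a UMI of ITGA2B, the platelet integrin α chain, and at 23.5 CPM in the 1759 cells with one.

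**Figure D1:**
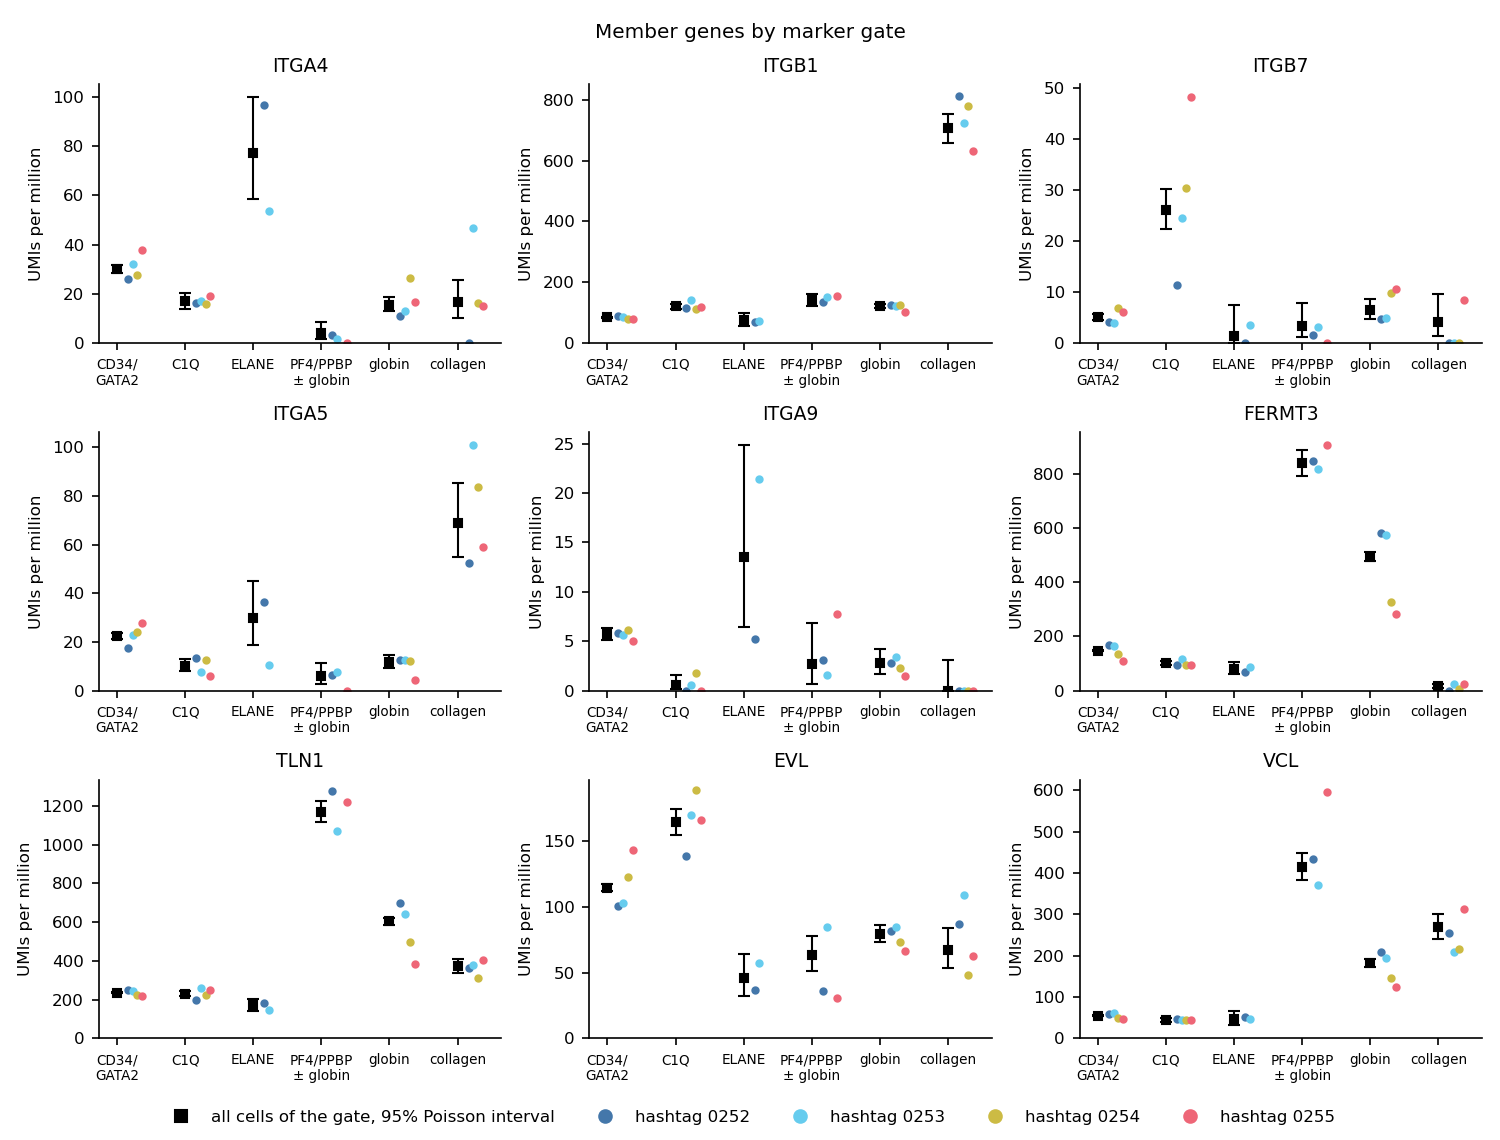
UMIs per 1000000 UMIs (CPM, linear axes from 0) of 9 members in 6 marker gates; black squares are all cells of the gate with 95% Poisson intervals and coloured points are the 4 hashtags, shown where a hashtag has 5 or more cells, with VCAM1 left out because it has 0 UMIs in every gate. ITGB1 and ITGA5 are highest in the collagen gate, ITGB7 in the C1Q gate, ITGA4 in the ELANE gate, and FERMT3, TLN1 and VCL in cells past the PF4/PPBP limit, drawn here with or without globin.

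ITGB1, which pairs with many α chains, was highest in the collagen gate. It stood at 705.7 CPM (659.1 to 754.8) there against 84.4 CPM (82.0 to 86.9) in CD34/GATA2 cells, 8.36 times higher (7.76 to 9.0). The hashtags gave 812.7, 722.9, 781.2 and 631.3 CPM in collagen cells and 88.8, 86.5, 80.5 and 80.1 CPM in CD34/GATA2 cells. The groups lay far apart in every hashtag. Across the blood gates ITGB1 ran from 75.9 CPM in ELANE cells to 121.8 CPM in globin cells, with C1Q cells at 120.9 CPM, and it stood at 140.6 CPM (122.3 to 160.9) in the 80 cells past the PF4/PPBP limit. C1Q and globin cells do not differ beyond their intervals, nor do ELANE and CD34/GATA2 cells.

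ITGB7, the β chain of α4β7, followed another order. Its RNA level does not show how much of the chain is paired with α4. It was highest in C1Q cells among the gates, at 26.0 CPM (22.3 to 30.2), 5.09 times (4.18 to 6.18) its level of 5.12 CPM (4.53 to 5.76) in CD34/GATA2 cells. Globin cells stood at 6.49 CPM and collagen cells at 4.15 CPM, and a single ITGB7 UMI was found in the ELANE gate. After thinning, 11.5% of C1Q cells (8.84 to 14.7) held an ITGB7 UMI, against 2.44% of CD34/GATA2 cells, 3.29% of globin cells and 1.41% of collagen cells (0.0357 to 7.6). The collagen share rests on 1 of 71 cells, and its interval takes in the shares of the CD34/GATA2 and globin gates, so ITGB7 there cannot be told apart from its level in collagen cells. Median depths were 11964 UMIs per cell in the C1Q gate, 20323 in the CD34/GATA2 gate and 15299 in the collagen gate.

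The gates leave most ITGB7 unplaced, since cells of no gate held 1810 of its 2316 UMIs. These cells were split further by genes chosen after the values were seen: HLA-DRA (class II antigen presentation), MPO or the eosinophil granule genes EPX, PRG2 and CLC at 10 or more UMIs per 10000, or the progenitor gene SPINK2 at 5 or more. ITGB7 reached 61.5 CPM (54.9 to 68.7) in 344 HLA-DRA cells and 49.0 CPM (38.4 to 61.5) in 86 SPINK2 cells. It stood at 29.9 CPM in the 2401 cells past none of these limits, 10.6 CPM in 71 eosinophil-gene cells and 4.81 CPM in 941 MPO cells. ITGA4 was ordered differently, at 74.9 CPM (59.9 to 92.7) in eosinophil-gene cells, 56.9 CPM in SPINK2 cells, 37 CPM in MPO cells and 23.7 CPM in HLA-DRA cells. A further 66 cells passed 2 or more of these limits and were set aside from these groups. They held ITGA4 at 105.7 CPM (87.3 to 126.9), above each of these groups, and ITGB7 at 6.44 CPM (2.59 to 13.3). With hashtags summed, SPINK2 cells thus stood high in both genes, ELANE cells in ITGA4 with little ITGB7, and HLA-DRA cells in ITGB7 with less ITGA4. By hashtag (0252 to 0255), SPINK2 cells gave ITGA4 at 34.9, 12.7, 66.9 and 71.5 CPM and ITGB7 at 34.9, 12.7, 48.9 and 63.4 CPM. These hashtags held 24, 5, 24 and 33 SPINK2 cells, so the high levels rest mainly on 0254 and 0255. Eosinophil-gene cells stood high in ITGA4 with ITGB7 below SPINK2 and HLA-DRA cells. Their ITGB7 level, from 12 UMIs, was still 2.07 times (1.06 to 3.67) that of CD34/GATA2 cells. These UMIs all lay in hashtags 0253 and 0254, at 14.2 and 32.4 CPM. After thinning, 10.1% of eosinophil-gene cells (4.18 to 19.8) held an ITGB7 UMI, against 2.44% of CD34/GATA2 cells. As deposited, these shares were closer, at 12.7% (5.96 to 22.7) and 8.10% (7.07 to 9.23).

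**Figure D2:**
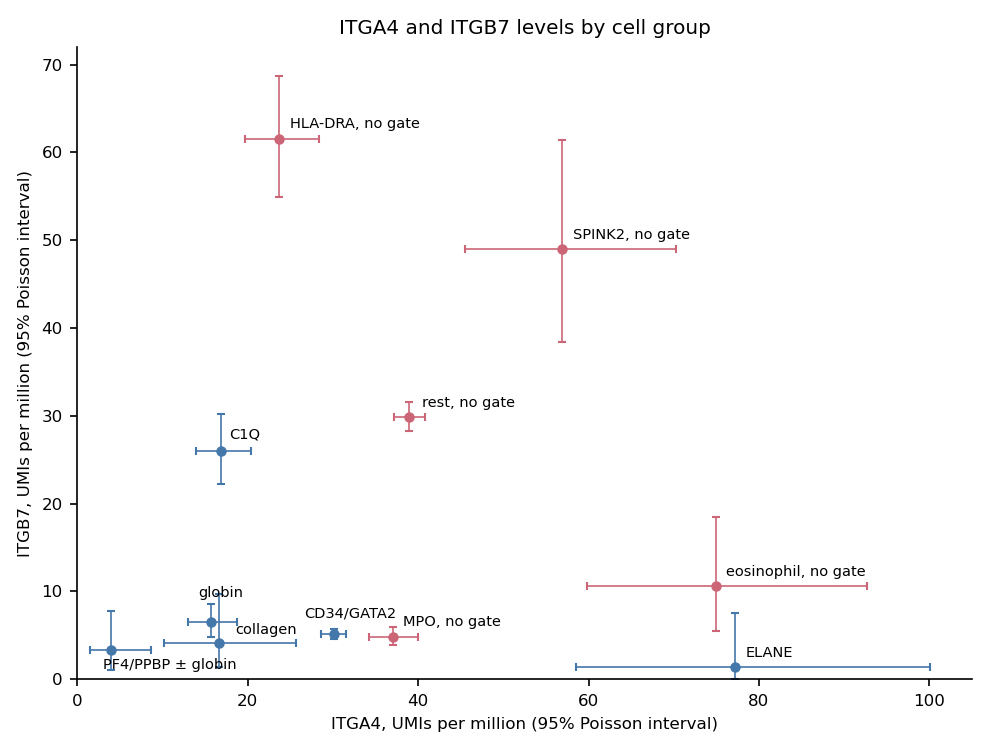
ITGA4 (x axis) against ITGB7 (y axis), both in UMIs per 1000000 UMIs on linear axes with 95% Poisson intervals, in the marker gates (blue) and in groups of the cells of no gate defined after the values were seen (red). SPINK2 cells lie high on both axes, at 56.9 and 49.0, ELANE cells at 77.2 and 1.35, and HLA-DRA cells at 23.7 and 61.5.

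ITGA5, the α chain of the fibronectin receptor, was highest in collagen cells at 68.9 CPM (54.9 to 85.4) against 22.5 CPM (21.2 to 23.8) in CD34/GATA2 cells, 3.07 times higher. It stood at 10.3 CPM (8.03 to 13.1) in C1Q cells and 11.8 CPM (9.47 to 14.5) in globin cells, and was lowest in the 80 cells past the PF4/PPBP limit, at 6.0 CPM (2.74 to 11.4) from 9 UMIs. These 3 groups do not differ beyond their intervals. In CD34/GATA2 cells the hashtags gave 17.6, 22.9, 24.03 and 27.8 CPM, so 0255 stood 1.58 times (1.33 to 1.88) above 0252. ITGA9, which also pairs with ITGB1, was sparse. It was found at 5.71 CPM (5.09 to 6.39) in CD34/GATA2 cells and at 13.5 CPM (6.5 to 24.9) from 10 UMIs in ELANE cells, at 0.608 CPM from 4 UMIs in C1Q cells, and at 0 UMIs in collagen cells, which allows up to 2.49 CPM.

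The linkers FERMT3, TLN1 and VCL were higher together in globin and PF4/PPBP cells than in CD34/GATA2 cells. FERMT3 stood at 494.1 CPM (478.4 to 510.2) in globin cells and 838.4 CPM (792.7 to 886.0) in the 80 cells past the PF4/PPBP limit, against 148.1 CPM (144.9 to 151.4) in CD34/GATA2 cells. TLN1 stood at 604.0, 1170 and 236.3 CPM in the same order, and VCL at 182.2, 413.9 and 55.0 CPM. The folds over CD34/GATA2 cells were 3.34, 2.56 and 3.31 for FERMT3, TLN1 and VCL in globin cells and 5.66, 4.95 and 7.52 in the 80 cells. By hashtag, globin cells gave FERMT3 at 580.9, 574.4, 327.9 and 283.6 CPM and TLN1 at 697.5, 641.5, 495.9 and 385.7 CPM. Every one of these lay above the highest hashtag of the CD34/GATA2 gate, at 167 CPM for FERMT3 and 250.4 CPM for TLN1. The megakaryocyte genes ITGA2B, GP9 and GP1BA moved the same way over the hashtags of the globin gate, from 654.8, 662.7 and 451.1 to 328.7 CPM in sum, and their part in the linker levels was not tested.

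Collagen cells differed in which linkers they held. TLN1 stood at 372.8 CPM (339.1 to 408.9) and VCL at 269.0 CPM (240.5 to 299.9) in them, while FERMT3 was at 15.8 CPM (9.50 to 24.6), 9.39 times below CD34/GATA2 cells (6.0 to 15.6). The FERMT3 level in collagen cells was 0.120 of that over all cells kept. Genes of other cell types gave 0.123 for the globin gene HBG2, 0.168 for SPN, 0.181 for MPO, 0.245 for PTPRC and 0.366 for C1QC. Collagen cells had to lie under the globin and C1Q limits, and 11 cells past the globin and collagen limits were set aside. The HBG2 and C1QC values are thus bounded by the gating, and nothing is read from them. For ITGB7 the ratio to all cells kept was 0.255 (0.0826 to 0.595), an interval that takes in the values of SPN, MPO and PTPRC. For ITGA4 it was 0.501 (0.305 to 0.774), above these genes, with an interval that overlaps that of PTPRC (0.163 to 0.355). The source of the UMIs of these genes in collagen cells was not tested. Thinned to 5000 UMIs, 8.45% of collagen cells (3.16 to 17.5) held a FERMT3 UMI against 47.5% of CD34/GATA2 cells, at median depths of 15299 and 20323 UMIs per cell before thinning. FERMT2, which makes the kindlin of non-blood cells, stood at 122.9 CPM in collagen cells and 9.84 CPM in CD34/GATA2 cells. EVL was highest in C1Q cells at 164.0 CPM (154.3 to 174.1) and lowest in ELANE cells at 46.1 CPM (31.9 to 64.4), with CD34/GATA2 cells at 114.4 CPM (111.6 to 117.3).

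Members were then set beside all genes. Of 7817 genes with 10 or more CPM over all cells kept and no use in gating, 8 were members, since ITGA9 and VCAM1 lay below this level. In the globin gate 3 of the 8 members (FERMT3, TLN1 and VCL) were at least 2-fold higher than in CD34/GATA2 cells, where 2.61% of all genes were, and 0 of 8 were 2-fold lower, where 4.04% were. The median log2 difference, taken on CPM + 1, was 0.41 for the 8 members and -0.14 for all genes. In the collagen gate 3 of 8 (ITGA5, ITGB1 and VCL) were higher beside 9.15% of all genes, and 1 (FERMT3) was lower beside 16.9%, with medians of 0.20 and -0.24. In the C1Q gate 1 of 8 (ITGB7) was higher beside 8.34% of all genes and 1 (ITGA5) was lower beside 11.9%, shares close to the background, with medians of -0.16 and -0.19. In the ELANE gate 1 of 8 (ITGA4) was higher beside 8.88% of genes and 2 (EVL and ITGB7) were lower beside 11.3%, ITGB7 resting on 1 UMI and a ratio interval of 0.00668 to 1.49. In the 6 cells of the PF4/PPBP gate 3 of 8 (FERMT3, TLN1 and VCL) were higher beside 8.76% of genes, and 3 (ITGA4, ITGA5 and ITGB7) were lower beside 23.1%, the latter from 0, 1 and 0 UMIs. A count of 0 there allows up to 22.6 CPM (exact upper bound 27.8 CPM), beside 30.1 CPM for ITGA4 and 5.12 CPM for ITGB7 in CD34/GATA2 cells.

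Co-detection asks whether a cell with an ITGA4 UMI also held a UMI of a β chain. In cells as deposited, 82.8% of the 957 CD34/GATA2 cells with ITGA4 also held ITGB1 (80.2 to 85.1) and 7.31% held ITGB7 (5.75 to 9.15). In C1Q cells with ITGA4 these shares were 82.1% and 25.3%, in ELANE cells 62.5% and 0%, and in HLA-DRA cells of no gate 75.9% and 54.0%. In SPINK2 cells of no gate, 76.0% of cells with ITGA4 held ITGB1 and 50% held ITGB7 (35.5 to 64.5). Over all cells of these groups, with or without ITGA4, ITGB1 was held by 78.8%, 73.9%, 58.1%, 70.3% and 72.1% in the same order. ITGB7 was held by 8.10%, 21.5%, 1.61%, 49.4% and 45.3% of them. Of all 2802 cells with ITGA4, 63.3% had ITGB1 alone, 14.9% both β chains, 4.28% ITGB7 alone and 17.6% neither. The UMIs of ITGB7 made up 5.71% of the UMIs of the 2 β chains in CD34/GATA2 cells, 17.7% in C1Q cells, 38.3% in HLA-DRA cells and 36.8% in SPINK2 cells of no gate.

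These shares depend on depth, so each cell was thinned to 5000 UMIs, which left out 68 shallower cells. ITGA4 and ITGB1 were then found in the same cell in 4.40% of CD34/GATA2 cells (3.64 to 5.27), 3.92% of C1Q cells (2.37 to 6.05) and 2.47% of globin cells (1.13 to 4.63). The product of the shares of the 2 genes was 4.03%, 3.93% and 3.16% in these gates, inside each interval. ITGA4 and ITGB7 were found together in 0.236% of CD34/GATA2 cells beside a product of 0.290%, in 1.24% of C1Q cells beside 0.952%, and in 1.58% of cells of no gate (1.21 to 2.02) beside 1.71%. At this depth no departure from the product was detectable in these gates, which does not show that the genes are independent. In MPO cells of no gate 0 of 934 cells held both, which allows up to 0.321% (exact upper bound 0.394%), beside a product of 0.290%. Over all cells kept, ITGB7 was found in 7.21% of thinned cells with ITGA4 (5.71 to 8.97) and in 7.16% of those without (6.54 to 7.81), and ITGB1 in 36.2% and 36.5%.

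The linkers were common in cells with and without ITGA4. In CD34/GATA2 cells as deposited, 81.1% of the cells with ITGA4 held both FERMT3 and TLN1 (78.5 to 83.5), against 86.1% of those without ITGA4 (84.3 to 87.8), and 68.8% held these and a β chain. The share with both linkers was 90.1% in globin cells with ITGA4 (81.5 to 95.6) and 98.6% in those without, 62.1% and 61.3% in C1Q cells, and 50% and 53.3% in ELANE cells. In the collagen gate 3 of 10 cells with ITGA4 and 12 of 66 without it held both. Thinned to 5000 UMIs, the shares with and without ITGA4 were 28.1% and 33.8% in CD34/GATA2, 59.3% (38.8 to 77.6) and 78.7% (73.9 to 82.9) in globin, 32.5% and 24.04% in C1Q, and 18.8% and 20.5% in ELANE cells. As deposited, the share with both linkers was thus lower beside ITGA4 in CD34/GATA2 and globin cells, and did not differ beyond the intervals in C1Q and ELANE cells. Once thinned, the intervals with and without ITGA4 overlapped in each of these gates. In CD34/GATA2 cells they were 23.1 to 33.5 and 31.9 to 35.8.

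Hashtags were compared within gates, because they hold different numbers of each gate. In CD34/GATA2 cells FERMT3 read 167, 166.5, 135.4 and 109.6 CPM in hashtags 0252 to 0255, 1.52-fold (1.42 to 1.64) from highest to lowest. EVL was lowest in 0252 and highest in 0255, at 100.5, 102.6, 122.2 and 142.7 CPM, 1.42-fold (1.32 to 1.53) apart, and ITGA4 was 1.46-fold (1.27 to 1.69) higher in 0255 than in 0252. VCL read 60.0, 61.4, 48.4 and 47.8 CPM, whereas ITGB1 and TLN1 spread by 1.11-fold and 1.13-fold. Of the 5 members at 50 or more CPM in this gate, 3 (EVL, FERMT3 and VCL) reached a ratio of 5 to 4 or more between the highest and the lowest hashtag, where 6.86% of 2710 genes did. The median ratio was 1.28 for these members and 1.09 for all genes. The paper reports EVL and FERMT3 as altered by VCAM1 in stem and multipotent progenitor cells of these same data. The members were chosen with earlier results known, so nothing is read from this count or from these medians. In C1Q cells 3 of 4 members (EVL, ITGB1 and TLN1) did, where 51.4% of 2567 genes did, and with medians of 1.29 and 1.26 nothing is read from that count.

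The megakaryocyte gene ITGA2B moved with FERMT3 over the hashtags of the CD34/GATA2 gate, at 122.2, 107.7, 95.1 and 75.6 CPM. In CD34/GATA2 cells with an ITGA2B UMI, FERMT3 read 198.2, 202.9, 154.5 and 123.3 CPM, 1.65-fold (1.51 to 1.79) apart. In cells of the gate without one it read 86.7, 78.6, 90.5 and 84.0 CPM, 1.151-fold (0.989 to 1.34), an interval that includes 1. EVL was highest in 0255 in both sets of cells, at 90.9, 101.0, 123.6 and 134.3 CPM without ITGA2B and 104.3, 103.3, 121.7 and 147.3 CPM with it. The neutrophil genes MPO, AZU1 and PRTN3 also differed between hashtags in this gate, at 884.4, 875.7, 409.5 and 308.9 CPM in sum. The split by ITGA2B was chosen after the data were seen. The part of ITGA2B or of the neutrophil genes in these values was not tested.

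Among the members above 10 CPM, ITGB7 had the widest ratio between hashtags over all cells kept, 3.10-fold (2.74 to 3.51), from 9.18, 11.3, 20.2 and 28.4 CPM in hashtags 0252 to 0255. In C1Q cells it read 11.3, 24.5, 30.3 and 48.3 CPM, 4.28-fold (2.59 to 7.30) from lowest to highest. In HLA-DRA cells of no gate it read 34.8, 50.2, 57.7 and 89.1 CPM, 2.56-fold (1.77 to 3.78), and in cells past no limit 20.1, 21.5, 33.8 and 40.2 CPM, 2.00-fold (1.69 to 2.38). Hashtag 0255 was highest in all these groups. In CD34/GATA2 cells it read 4.05, 3.83, 6.92 and 5.98 CPM, 1.81-fold (1.28 to 2.58) apart, with 0254 and 0255 above 0252 and 0253 here too. In MPO cells it read 3.88, 6.51, 3.51 and 2.45 CPM, 2.66-fold (0.974 to 10.1) apart. HLA-DRA itself stood at 1787, 1516, 2060 and 2156 CPM over the hashtags of the C1Q gate, and the macrophage genes CD14, CD163 and MRC1 at 171.6, 244.8, 112.3 and 143.9 CPM in sum, and their part in the ITGB7 levels was not tested.

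The share of cells with ITGA4 that also held ITGB7 rose with the ITGB7 level over all cells kept, but not in every group. Over all cells kept and as deposited, it was 12.2% (9.95 to 14.8), 13.6% (11.2 to 16.3), 23.9% (20.7 to 27.2) and 28.4% (25.0 to 32.1) in hashtags 0252 to 0255. The 2 higher hashtags do not overlap the 2 lower ones. Thinned to 5000 UMIs, ITGA4 and ITGB7 were in the same cell in 0.237%, 0.555%, 1.14% and 2.39% of all cells, beside products of 0.541%, 0.728%, 1.07% and 1.96%. Hashtags differed in their mix of gates, so these values over all cells join a difference in mix and a difference within cells.

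Other genes of the pathway were taken from lists, and each count below reads against the share of all 7817 genes at least 2-fold off CD34/GATA2 cells. That share was 8.34% higher and 11.9% lower in C1Q, 8.88% and 11.3% in ELANE, 8.76% and 23.1% in PF4/PPBP, 2.61% and 4.04% in globin, and 9.15% and 16.9% in collagen cells. Of 15 other integrin α chains, 4 reached 10 CPM over all cells kept. In C1Q cells 2 were 2-fold higher (ITGAL and ITGAV) and 1 lower (ITGA2B), in globin cells 1 higher (ITGA2B) and 1 lower (ITGAL), in collagen cells 1 higher (ITGAV) and 2 lower, in ELANE cells 0 higher and 1 lower (ITGA2B), and in the 6 PF4/PPBP cells 1 higher (ITGA2B) and 0 lower. ITGA2B stood at 323.8 CPM in globin and 102.9 CPM in CD34/GATA2 cells. ITGAE, the remaining α chain tested, was not 2-fold off in any lineage gate, at 111.9 CPM in CD34/GATA2 cells and 78.2 CPM in C1Q cells. ITGAV, an α chain of vitronectin receptors, stood at 248.2 CPM in collagen cells against 8.49 CPM in CD34/GATA2 cells. ITGA1, a collagen receptor chain under the level for testing, stood at 122.9 CPM in collagen cells and 0.560 CPM in CD34/GATA2 cells. ITGA6, a laminin receptor chain also under that level, stood at 105.3 CPM in the 80 cells past the PF4/PPBP limit and 6.22 CPM in CD34/GATA2 cells. Of 6 other β chains only ITGB2, the leukocyte β2 chain, reached 10 CPM, at 267.7 CPM in C1Q cells, 84.0 in ELANE cells and 32.8 CPM in CD34/GATA2 cells. ITGB3 has 2 rows under 1 symbol and was given no value.

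Of 6 other ligands of α4 or α9 integrins, 3 were tested (FN1, SPP1 and EMILIN1). In collagen cells all 3 were 2-fold higher, beside 9.15% of all genes, in C1Q cells 2 higher, beside 8.34%, and 1 lower (EMILIN1), in globin cells 1 higher (SPP1), beside 2.61%, and 1 lower (FN1), in ELANE cells 0 higher and 1 lower (FN1), and in the 6 PF4/PPBP cells 2 higher and 1 lower. SPP1 (osteopontin), bound by α4β1 and α9β1, stood at 2170 CPM in C1Q cells, 173.5 in collagen cells and 17.96 CPM in CD34/GATA2 cells. FN1 (fibronectin) stood at 1210 CPM in collagen cells, the cells in which ITGA5 and ITGB1 were highest, and at 7.0 CPM in CD34/GATA2 cells. Both ligands thus stood far above VCAM1, which had 0 UMIs in these gates.

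Of 13 activators and inhibitors of integrins 10 were tested, and in globin cells 2 were 2-fold higher and 0 lower. These were RAP1B, a small GTPase that brings talin to the membrane, at 416.5 CPM against 103.3 CPM in CD34/GATA2 cells, and APBB1IP, which links RAP1 to talin, at 166.2 against 43.5 CPM. In C1Q cells 6 of the 10 were higher and 1 lower, beside 8.34% and 11.9% of all genes, with FYB, an adaptor of the same pathway, at 347.1 against 121.0 CPM and RASGRP2, an exchange factor for RAP1, lower at 25.7 against 101.8 CPM. In collagen cells 2 were higher (FERMT2 and FLNA) and 3 lower (APBB1IP, RASGRP2 and FYB), and in ELANE cells 2 were higher and 1 lower. FLNA, an actin crosslinker that competes with talin for the β tail, stood at 463.3 CPM in collagen cells, 220.8 in ELANE cells and 68.3 CPM in CD34/GATA2 cells. In the 6 PF4/PPBP cells 6 were higher and 0 lower, RAP1B among them at 1003 CPM.

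Of 16 genes of the adhesion complex 11 were tested. In globin cells ILK and LIMS1, partners in the complex that binds β tails through kindlin, were 2-fold higher and 0 genes lower, LIMS1 at 354.5 CPM against 108.7 CPM in CD34/GATA2 cells. In the 6 PF4/PPBP cells 6 of 11 were higher and 0 lower, beside 8.76% and 23.1% of all genes, and LIMS1 stood at 829.7 CPM in the 80 cells past that limit. In collagen cells 5 were higher and 3 lower, with ACTN1 (α-actinin) at 446.7 against 45.1 CPM, ENAH, the Ena/VASP relative of EVL, at 160.2 against 21.4 CPM, and PARVG, a parvin of blood cells, at 14.1 against 67.1 CPM. In ELANE cells 3 were higher and 1 lower, ACTN1 at 264.1 CPM and PTK2B at 100.2 against 27.3 CPM. In C1Q cells 1 was higher (zyxin, ZYX, at 250.5 against 123.9 CPM) and 2 lower (PARVB at 37.4 against 94.0 CPM, and ENAH at 3.19 CPM). BCAR1, the docking protein p130Cas, lay under the level for testing and stood at 123.7 CPM in collagen and 3.47 CPM in CD34/GATA2 cells.

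The genes whose levels were most like those of ITGA4, ITGB1 and ITGB7 were ranked by Pearson r of log2(CPM + 1) over 22 sums of gate and hashtag that held cells. The 5 closest to ITGA4 were MCM8, PIGK, NCAPG2, MELK and BRCA2 (r from 0.92 to 0.95), to ITGB1 RHOBTB3, ACTC1, ISCU, COL1A1 and ACTA2 (0.91 to 0.92), and to ITGB7 CHN2, CD40, GPR65, TAP2 and CCL4 (0.86 to 0.92). Sums share 1 library, and sums of 2 to 4 cells are among them. COL1A1 was used to define the collagen gate and was not left out of this ranking, so nothing is read from its place beside ITGB1. Over the 16 sums of the CD34/GATA2, C1Q, globin and collagen gates RHOBTB3 again ranked first for ITGB1 (0.99), whereas POC1A ranked first for ITGA4 (0.96) and LCP1 for ITGB7 (0.94), and 0 of the 5 genes were shared for either.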

How the data were processed

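The authors made the matrix of UMI counts per gene and barcode with Cell Ranger 6.0.1 on hg19 from a 10x 3′ library, and deposited it with hashtag UMI counts and a call for each barcode (1 hashtag, doublet or negative). The deposited counts were used as they are, with 218374103 gene UMIs in all. Here 1339 barcodes called doublets and 1009 called negative were left out, and Scrublet (scanpy 1.11.5), which marked 99 of the barcodes called for 1 hashtag, served as an alternative. Levels are summed UMIs of a gene per 1000000 gene UMIs of a group. Pairs of genes were counted after drawing 5000 UMIs per cell without replacement. Intervals came from scipy 1.17.1. Fold calls between gates, their intervals and thinning were tried on simulated counts with large planted changes and counting error only. Ratios between hashtags and co-detection were not simulated. There is 1 library, so no test between conditions was made, and the hashtags could not be tied to coatings. The members and lists were chosen with earlier results of these data known. Alternatives covered gate limits, doublets, cell limits, averaging, thinning, the fold and hashtag calls. Genes outside the members were named when they reached 100 CPM in some gate with at least 4-fold between gates, ILK for its count, and ITGAE as the remaining α chain tested. Positions came from a GENCODE annotation on hg19, which held all 10 IDs.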

Additional observations from a re-analysis of the deposited data

Results flagged for a closer look

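Barcodes called negative for every hashtag enter no comparison, and 809 of them lay within the limits on UMIs, genes and mitochondrial share. They carried the VCAM1-binding subunits above the limit that 3 counts allow (0.235 CPM), and were flagged for that reason. ITGA4 stood at 34.6 CPM and ITGB1 at 93.5 CPM in them, beside 33.2 and 95.3 CPM in the cells kept. ITGB7 stood at 4.39 CPM beside 16.3 CPM in the cells kept, a ratio of 0.269 (0.203 to 0.351). Of these barcodes 64.5% passed the CD34/GATA2 gate and 0.742% the C1Q gate, and HLA-DRA stood at 20.2 CPM beside 208.8 CPM in the cells kept. The part of this mix in the ITGB7 level was not tested.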

How the results depend on the processing

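Each result was recomputed under the alternatives named with the processing, and 248 of 270 values of the main results stayed within their interval or, for counts, within 1.5 times. No paired analysis was possible because there is 1 library and no replicate. Thinning set the co-detection shares: without it ITGA4 and ITGB1 shared 31.1% of CD34/GATA2, 15.7% of C1Q and 19.3% of globin cells, and ITGA4 and ITGB7 2.75%, 4.82% and 4.36%, while at 8000 UMIs the first pair shared 9.37%, 8.39% and 6.59%, and the second 0.591% in CD34/GATA2 cells. The ITGA4 level of the CD34/GATA2 gate moved to 26.9 CPM with 2 UMIs each of CD34 and GATA2, 33.8 CPM with a mitochondrial limit of 15% and 31.6 CPM with no limit on UMIs or genes, which set ITGB1 in collagen cells at 654 CPM. With a gate limit of 20 per 10000 the ELANE gate gave ITGA4 at 100.2 CPM and ITGB7 at 0 CPM, 1 member was 2-fold off in C1Q cells (ITGB7) and 5 were in globin cells, ITGA4 and ITGA5 being lower, and no PF4/PPBP cell was left. With a limit of 5 per 10000, 1 member was 2-fold off in ELANE cells (ITGA4). At 1.5-fold 5 members were off in globin and 7 in collagen cells. Among CD34/GATA2 cells without an ITGA2B UMI, a set chosen after seeing the data, 1 of 4 members (EVL) reached a ratio of 5 to 4 between hashtags, against 3 of 5 in the whole gate. The shares of all genes under these altered settings are not given here, so nothing is read from these counts of members. Depth limits ITGB7 and ITGA9, and the 62 ELANE and 6 PF4/PPBP cells. Why these values moved was not tested, beyond the larger number of UMIs that less thinning keeps.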
